A study of Mus musculus with 3 samples.

Results

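The genes described here are Lrp2, Cubn, Amn, Dab2, Lrpap1, Clcn5 and Ocrl, of the apical endocytic apparatus of the kidney proximal tubule, and Tmem27. Tmem27 encodes a brush border protein and is counted with them, and the 8 are called the endocytic genes for short. They were taken as every probe set whose single gene symbol in the platform annotation is one of these names, which gave 22 of the 45037 probe sets that are not array controls. Tmem27 is listed under its current symbol, Cltrn, and was matched through the RefSeq synonym. The rule that collects the probe sets uses gene names, and the 8 genes themselves were chosen with earlier results of these data known.

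Kidney RNA came from 3 conventionally housed C57BL/6 mice, with 1 single-colour Affymetrix array per mouse. In the acetate group, 2 mice received acetate, the short-chain fatty acid labelled C2, at 200 mM in their drinking water, starting at the age of 3 weeks and lasting 6 weeks. In the control group, 1 mouse was labelled as control for the agent. The start age of 3 weeks is listed for it too, and what it drank is not given. The tissue is labelled only as kidney, so each value averages all its segments and cell types, and the single control array has no error of its own. The question is which genes of the kidney respond to oral acetate. Values are the deposited log2 expression values, on which a difference of 1 is a 2-fold change, and the acetate mean is given with its SD (n = 2).

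The proximal tubule recovers nearly all protein that passes the glomerular filter. Megalin (Lrp2) and cubilin (Cubn) bind filtered proteins, vitamin carriers and hormones at the brush border and are taken up through clathrin-coated pits. Cubilin has no membrane anchor of its own and depends on amnionless (Amn), and the adaptor Dab2 links the tail of megalin to clathrin. The chaperone RAP (Lrpap1) escorts megalin through the secretory pathway. The chloride-proton exchanger ClC-5 (Clcn5) and the phosphoinositide phosphatase OCRL (Ocrl) serve the endosomes, and human mutations in either cause low-molecular-weight proteinuria in Dent disease or Lowe syndrome. Collectrin (Tmem27), a brush border membrane protein, is needed there for neutral amino acid transporters.

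In the acetate-fed kidneys, 15 of the 22 probe sets were below the control value in both mice, 5 were above it in both mice, and 2 were neither, against 23% of all 45037 probe sets below and 22% above. Of the 45037, 13522 had the same value on all 3 arrays and could be neither, as did 1 of the 22. At a mean log2 value of at least 9, which 15 of the 22 reached, the share below in both mice was 36.2% of 4207 probe sets. All Cubn, Amn and Lrpap1 probe sets were lower, the Tmem27 probe set was higher, and Clcn5 stood close to the control value. The differences were small: no probe set was 1.5-fold from the control in both mice, against 1.23% of 27022 probe sets lower and 1.67% higher by that measure. Of the 22, 21 passed the filter on low values, and 4 of those had exactly the same value on both acetate arrays and were not tested, which left 17 tested probe sets of all 8 genes. By limma's moderated test, 5 of the 17 passed as lower at an adjusted p under 0.05, against 4.97% of 17923 tested probe sets (7% of the 3758 with a mean log2 value of at least 9), and 0 passed as higher, against 6.55%. At an unadjusted p under 0.05, limma gave 8 of the 17, against 3811 of the 17923. Of these 8, 7 were lower, all of Cubn, Amn and Lrpap1. The 5 calls belong to 2 genes, Cubn (2 of 2 probe sets) and Lrpap1 (3 of 4), so they are not 5 independent observations. These 5 calls were lost with the tied probe sets in the fit, in the upper 40% of probe sets, after quantile normalization and after median centring. Cubn 1426990_at and Lrpap1 1436609_a_at also lost theirs without an intensity trend. After quantile normalization limma called 0 probe sets of the whole array (2559 at an unadjusted p under 0.05), so every call named here and below is lost with it.

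**Figure D1:**
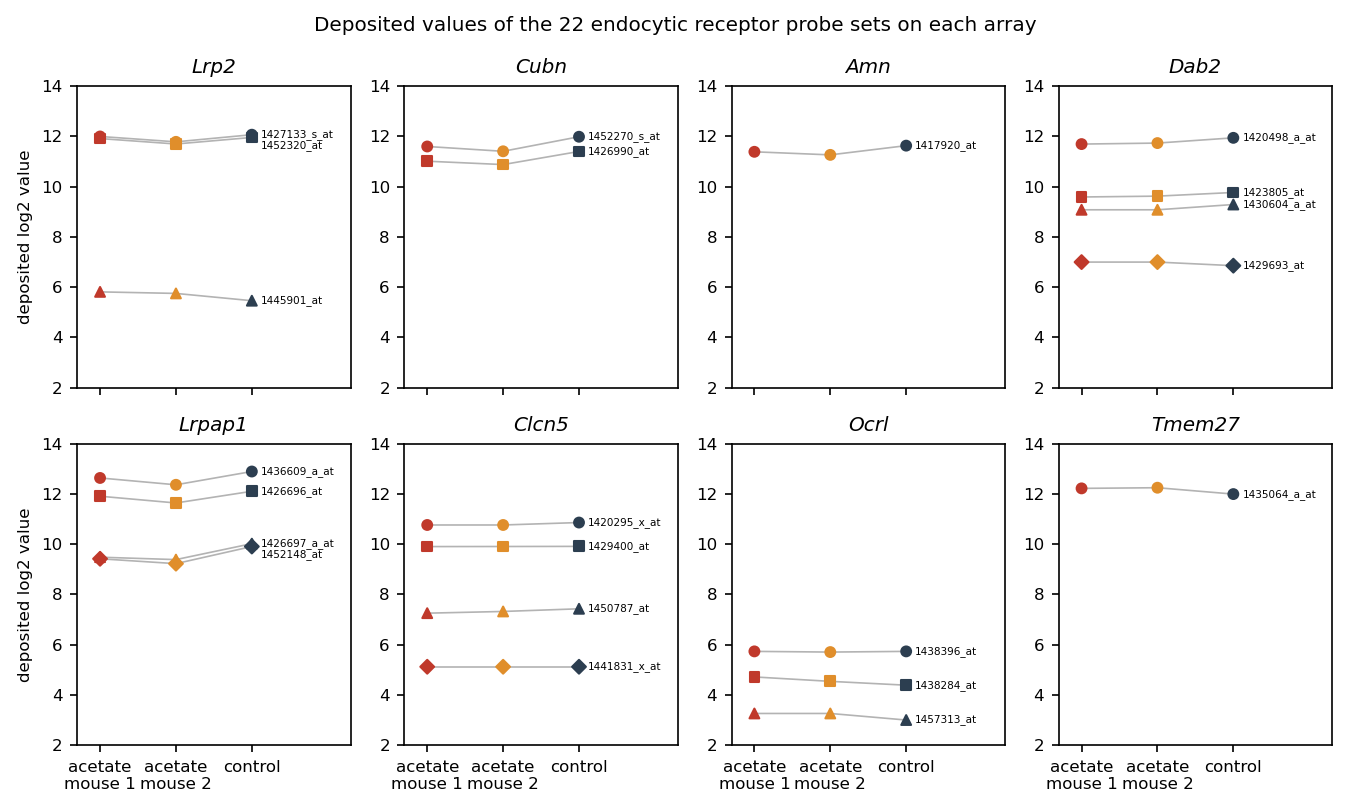
Deposited log2 values (vertical axis, log2 scale) of the 22 probe sets, in 1 panel per gene, on the arrays of acetate mouse 1, acetate mouse 2 and the control mouse (horizontal axis). Each symbol shape is 1 probe set and grey lines join its values. Cubn, Amn and Lrpap1 stood lower on both acetate arrays than on the control array, Tmem27 stood higher, and Ocrl was the gene whose probe sets all lay under a log2 value of 6.

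Cubn, the cubilin gene, lies on chromosome 2 from 13276338 to 13491876 (GRCm38.p6, RefSeq). Its probe set 1452270_s_at read 11.59 and 11.40 in acetate mice 1 and 2, against 11.98 in the control mouse. The second, 1426990_at, read 11.01 and 10.87 in the acetate mice, against 11.39 in the control mouse. Both acetate values lay below the control value in each case, at 76.4% and 66.9% of it for 1452270_s_at and 76.5% and 69.7% for 1426990_at. The acetate means were 11.50 ± 0.14 and 10.94 ± 0.10. The mean difference of -0.48 (SE 0.12, adjusted p = 0.0066, limma) was 2.52 times the gap between the acetate mice for 1452270_s_at. For 1426990_at the difference of -0.45 (SE 0.12, adjusted p = 0.011, limma) was 3.38 times that gap. Among all tested probe sets, 3.95% and 4.53% had a difference as low or lower.

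Amn, the membrane anchor of cubilin, lies on chromosome 12 from 111271096 to 111276426. Its 1 probe set read 11.38 and 11.26 in the acetate mice, against 11.63 in the control mouse. Both acetate values were lower, with log2 differences of -0.25 and -0.37, beside -0.39 and -0.58 for Cubn 1452270_s_at. The mean difference of -0.31 (95% interval -0.55 to -0.06) did not pass limma's test over all probe sets (adjusted p = 0.10).

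Lrp2, the megalin gene, lies on chromosome 2 from 69424335 to 69586029. Probe set 1427133_s_at read 11.99 and 11.78 in the acetate mice, against 12.06 in the control mouse, and 1452320_at read 11.91 and 11.69 in the acetate mice, against 11.95 in the control mouse. Acetate mouse 1 was thus close to the control and acetate mouse 2 lower, and the mean differences of -0.18 and -0.15 were smaller than the gap between the acetate mice. Neither passed the test (adjusted p = 0.47 and 0.59, limma), with 95% intervals of -0.42 to 0.07 and -0.40 to 0.10. The remaining, dim probe set, 1445901_at, went the other way, at 5.81 and 5.74 in the acetate mice, against 5.45 in the control mouse (difference 0.32, adjusted p = 0.25). With 1427133_s_at, Lrp2 reached 95.3% and 82.1% of the control value, beside 76.4% and 66.9% for its partner Cubn with 1452270_s_at. The difference between the 2 genes was not tested.

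Lrpap1, which encodes the receptor-associated protein RAP, lies on chromosome 5 from 35091490 to 35105699. All 4 of its probe sets were lower in both acetate mice. Probe set 1426697_a_at read 9.47 and 9.38 in the acetate mice, against 10.01 in the control mouse, and 1452148_at read 9.41 and 9.22 in the acetate mice, against 9.90 in the control mouse. Their differences of -0.59 (SE 0.13, adjusted p = 0.0017) and -0.58 (SE 0.13, adjusted p = 0.0024) were the lowest of the 22, and leave 66.5% and 66.7% of the control value as the mean. The brighter 1436609_a_at read 12.63 and 12.36 in the acetate mice, against 12.89 in the control mouse (difference -0.39, adjusted p = 0.032). The remaining probe set, 1426696_at, read 11.90 and 11.63 in the acetate mice, against 12.10 in the control mouse, and its difference of -0.33 did not pass (adjusted p = 0.087). The 4 probe sets thus agreed in direction and ranged from -0.59 to -0.33, with acetate mouse 2 below acetate mouse 1 in each.

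Dab2, the clathrin adaptor of megalin, lies on chromosome 15 from 6299788 to 6440715, and is also expressed in macrophages. Its probe set 1420498_a_at read 11.69 and 11.73 in the acetate mice, against 11.94 in the control mouse, and 1423805_at read 9.58 and 9.62 in the acetate mice, against 9.76 in the control mouse. Both acetate values lay below the control value, but the differences of -0.23 and -0.16 did not pass (adjusted p = 0.26 and 0.56, limma). The other 2 probe sets had exactly tied acetate values and were not tested. Probe set 1430604_a_at read 9.07 in each acetate mouse, against 9.28 in the control mouse, and the dimmer 1429693_at went the other way, at 6.99 in each acetate mouse, against 6.85 in the control mouse. With tied probe sets kept in the fit, 1430604_a_at passed as lower (adjusted p = 0.030) and 1429693_at as higher (adjusted p = 0.018), which would give 1 gene a call in each direction. In that fit 10.5% of 27022 probe sets passed.

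No tested probe set of the endosomal genes Clcn5 and Ocrl passed. Clcn5, the ClC-5 exchanger gene, lies on the X chromosome from 7153810 to 7319358. Its probe set 1420295_x_at read 10.76 in each acetate mouse, against 10.85 in the control mouse, and 1429400_at read 9.90 in each acetate mouse, against 9.91 in the control mouse. Probe set 1450787_at read 7.25 and 7.32 in the acetate mice, against 7.42 in the control mouse. The last, 1441831_x_at, had the value 5.11 on all 3 arrays. The suffix _x_at marks probe sets that may also bind other transcripts. The 2 tested Clcn5 probe sets gave -0.01 (95% interval -0.26 to 0.25) and -0.14 (-0.44 to 0.16), and neither passed (adjusted p = 0.997 and 0.75, limma).

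Ocrl lies on the X chromosome from 47912418 to 47966428, and its probe sets were dim. Probe set 1438396_at read 5.73 and 5.70 in the acetate mice, against 5.73 in the control mouse. Probe set 1438284_at read 4.71 and 4.53 in the acetate mice, against 4.38 in the control mouse (adjusted p = 0.50). The last, 1457313_at, read 3.26 in each acetate mouse, against 2.99 in the control mouse, below the filter's smallest mean of 4.21. With detection calls not given, these values may lie at background, and no direction is drawn from them.

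Tmem27, the collectrin gene, lies on the X chromosome from 164090187 to 164118859. Its 1 probe set read 12.21 and 12.24 in the acetate mice, against 11.99 in the control mouse. It was higher by 0.23 and 0.25, close in size in both mice, and the mean difference of 0.24 was 9.20 times the gap between them. It did not pass over all probe sets (adjusted p = 0.22, limma; 95% interval 0.01 to 0.47). Among the 15 probe sets with a mean log2 value of at least 9, it was the 1 that was higher in both acetate mice. The other 14 were lower in both, where 36.2% of all 4207 probe sets of that brightness were. This split at 9 was set after the values were seen. The 14 belong to Lrp2, Cubn, Amn, Dab2, Lrpap1 and Clcn5, most with several probe sets, so they are not 14 independent observations.

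**Figure D2:**
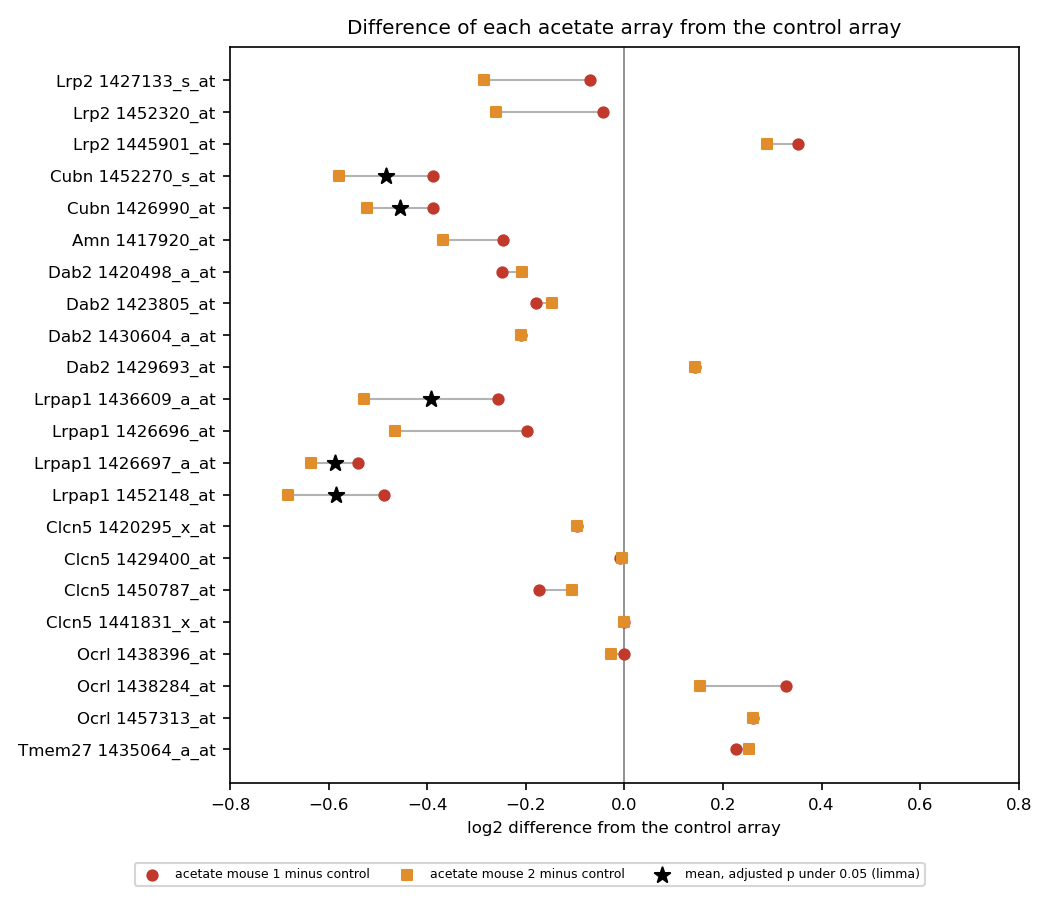
Log2 difference from the control array (horizontal axis) of acetate mouse 1 (circles) and acetate mouse 2 (squares) for each of the 22 probe sets (vertical axis). Stars mark the means of the 5 probe sets with an adjusted p under 0.05, 2 of Cubn and 3 of Lrpap1, whose means lay between -0.59 and -0.39.

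The control value lay farther from both acetate values than these lay from each other at 9 of the 17 tested probe sets as lower and 2 as higher, against 19.2% and 18.3% of all 17923. A very small gap can meet this measure without a sizeable difference. It counts Clcn5 1429400_at, at -0.006 with a gap of 0.003, and leaves out Lrpap1 1436609_a_at, which passed limma's test, at -0.39 with a gap of 0.27. Acetate mouse 2 was the lower of the 2 acetate mice at 12 probe sets and acetate mouse 1 at 5. Within 20 bins of like level, all 17 tested probe sets lay inside the middle 95% of differences of the probe sets in their bin. For the lowest, Lrpap1 1426697_a_at at -0.59, that range ran from -0.60 to 0.69.

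**Figure D3:**
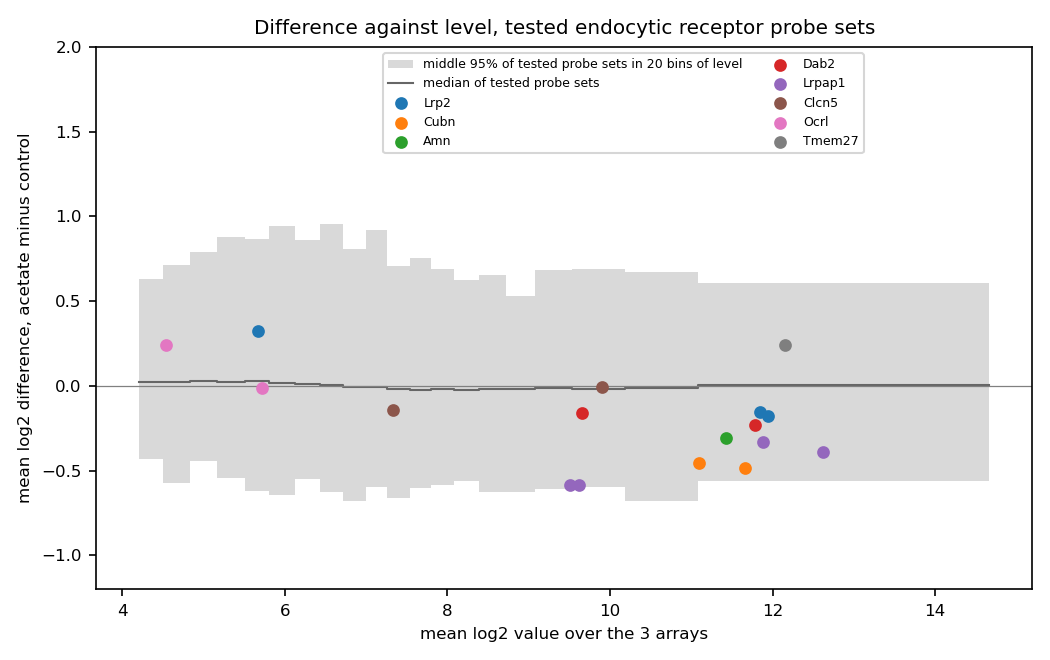
Mean log2 difference, acetate minus control (vertical axis), against the mean log2 value over the 3 arrays (horizontal axis) for the 17 tested probe sets. The grey band is the middle 95% of tested probe sets in 20 bins of level, and all 17 points lie inside it.

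The starts of the 2 genes that passed as lower, Cubn and Lrpap1, are shown because these genes moved the same way while their starts differ in sequence. Each line holds the 250 bases before the annotated start, from RefSeq (GRCm38.p6), on the strand of the gene. All 8 genes had an entry in the promoter table. Capitals mark matches on either strand to the GC box (GGGCGG), which Sp1 is known to bind, or the TATA box (TATAAA). The windows are chr2:13491877-13492126 and chr5:35105700-35105949, both on the minus strand.
Cubn: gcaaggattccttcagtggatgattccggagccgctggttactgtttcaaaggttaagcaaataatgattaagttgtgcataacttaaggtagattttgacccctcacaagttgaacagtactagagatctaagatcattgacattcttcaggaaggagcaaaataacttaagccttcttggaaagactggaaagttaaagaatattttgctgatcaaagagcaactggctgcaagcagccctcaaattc
Lrpap1: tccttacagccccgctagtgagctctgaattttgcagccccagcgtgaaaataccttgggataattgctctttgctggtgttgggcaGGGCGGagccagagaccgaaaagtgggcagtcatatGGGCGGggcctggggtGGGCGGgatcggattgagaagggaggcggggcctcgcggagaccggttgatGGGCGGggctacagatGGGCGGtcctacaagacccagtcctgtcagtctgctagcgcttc
The Lrpap1 window holds 5 GC boxes, and 32.7% of 32851 promoter windows of this length hold at least 1. The Cubn window holds no match to either motif. GC content was 39.6% in the Cubn window and 60.8% in the Lrpap1 window, against a median of 52.4% over all windows. These matches are descriptions of the letters, and binding was not measured.

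The 8 genes can be set beside other genes of the proximal tubule. Each gene was represented by its brightest probe set that passed the filter, tied or not. Genes whose brightest probe set was tied were not in the fit. The median difference of the endocytic genes was -0.17 in acetate mouse 1 and -0.25 in acetate mouse 2. Of the 8, 6 were lower in both mice and 7 were in the fit. For 24 proximal tubule genes the medians were -0.33 and -0.32, with 18 lower and 3 higher in both mice. Of the 22 in the fit, 11 passed limma's test as lower and 1 as higher. Over all 13473 genes the medians were 0.00 and 0.00, and 3505 genes stood higher and 4157 lower in both mice. Of the 9451 in the fit, 578 passed as lower and 624 as higher, and 2158 had an unadjusted p under 0.05 (limma). With all probe sets of a gene that passed the filter averaged, the median of the 8 genes was -0.09 in place of -0.20 over both mice. Tubule identity was present on every array: the phosphate transporter gene Slc34a1 read 13.24 and 13.17 in the acetate mice, against 13.41 in the control mouse. Its difference of -0.20 did not pass (adjusted p = 0.31). Among the genes that passed as lower were the organic anion transporter gene Slc22a6, at -1.12, and the urate transporter gene Slc22a12, at -1.04 (adjusted p = 2.1e-07 and 2.6e-07, limma). The tubule transcription factor gene Hnf4a read 11.65 and 11.66 in the acetate mice, against 11.73 in the control mouse, and its other 3 probe sets lay between 0.09 and 0.17 above the control on average.

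Among brush border partners of collectrin and peptidases, 0 of 11 genes were higher in both mice and 7 were lower in both, with median differences of -0.10 and -0.15. Of the 9 in the fit, 2 passed as lower. Slc6a20b, a gene of the SLC6 transporter family, read 10.16 and 9.87 in the acetate mice, against 10.60 in the control mouse (difference -0.59, adjusted p = 0.0026, limma). Anpep, which encodes aminopeptidase N, read 7.93 and 7.79 in the acetate mice, against 8.79 in the control mouse (difference -0.92, adjusted p = 2.0e-05). Slc6a19, the main neutral amino acid transporter gene of the tubule and a collectrin client, read 10.35 and 10.67 in the acetate mice, against 10.45 in the control mouse, so the 2 acetate mice lay on either side of the control.

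The genes of the general uptake machinery had median differences of 0.00, as did all 13473 genes. Many of their values were exactly equal between arrays, so these medians do not set them apart. Of 28 clathrin coat and adaptor genes, 8 stood higher and 5 lower in both mice, with medians of 0.00 in each. Of the 20 in the fit, 1 passed. It was Hip1, a clathrin- and actin-binding adaptor gene, at 6.47 and 5.98 in the acetate mice, against 5.43 in the control mouse (difference 0.79, adjusted p = 0.0026). The clathrin heavy chain gene Cltc differed by 0.17 and did not pass (adjusted p = 0.50). Of 34 early and recycling endosome genes, 9 stood higher and 9 lower in both mice. Of the 22 in the fit, 0 passed limma's test, with 3 at an unadjusted p under 0.05. The widest differences were -0.36 for Ehd1, an endosomal recycling ATPase gene, and 0.30 for its paralog Ehd4 (adjusted p = 0.075 and 0.18). Among 12 other LDL receptor family genes, 3 stood higher and 6 lower in both mice. Of the 10 in the fit, Lrp12 passed as lower, at 5.67 and 5.60 in the acetate mice, against 6.20 in the control mouse (adjusted p = 0.018). Lrp1, a broadly expressed relative of megalin that macrophages and fibroblasts carry, read 7.97 and 7.43 in the acetate mice, against 7.23 in the control mouse (adjusted p = 0.066). Of 8 other genes of the CLC channel and exchanger family and its subunits, 5 were lower and 1 higher in both mice. Of the 6 in the fit, 0 passed. Clcn7, the lysosomal exchanger gene, had the widest difference, -0.31 (adjusted p = 0.21). At an unadjusted p under 0.05, limma gave 1 of these 6.

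Genes of filtered ligands and their handling moved in both directions. Of 21 tested, 9 were higher and 7 lower in both mice, with 5 passing as higher and 2 as lower. Those higher included Lcn2, the lipocalin NGAL gene, at 10.44 and 8.67 in the acetate mice, against 6.36 in the control mouse (difference 3.19, adjusted p = 3.4e-08), and the clusterin gene Clu (difference 0.70, adjusted p = 0.00032). Both are also counted among the tubular injury genes. The other 3 were Apoe, the apolipoprotein E gene (difference 0.44, adjusted p = 0.018), Mt2, a metallothionein gene (difference 0.84, adjusted p = 1.1e-05), and Cyp24a1, the vitamin D catabolic enzyme gene, at 8.32 and 8.80 in the acetate mice, against 7.87 in the control mouse (adjusted p = 0.0029). Those lower were the albumin gene Alb (difference -1.47, adjusted p = 1.4e-07) and the fatty acid binding protein gene Fabp1 (difference -0.75, adjusted p = 0.0022). Fcgrt, the neonatal Fc receptor gene that recycles albumin, read 11.08 and 11.05 in the acetate mice, against 11.41 in the control mouse, and did not pass (adjusted p = 0.061).

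**Figure D4:**
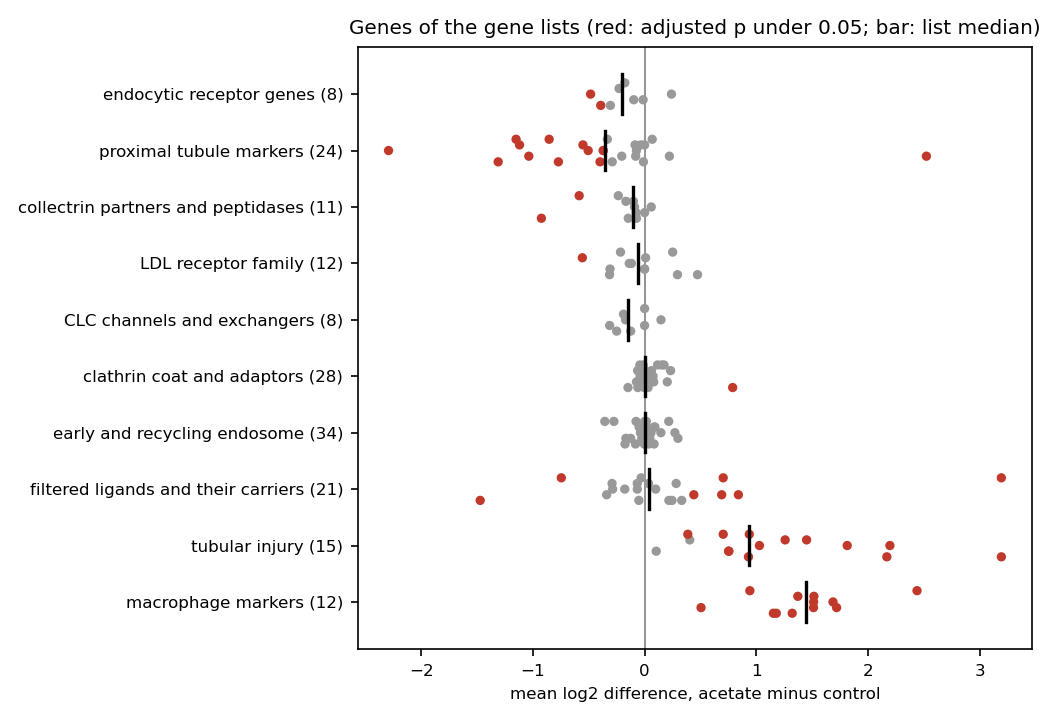
Mean log2 difference, acetate minus control (horizontal axis), of every gene with a probe set that passed the filter, tied or not, in 10 gene lists (vertical axis, with the number of genes in brackets). Red points have an adjusted p under 0.05 and bars are list medians. The 8 endocytic genes, with Tmem27 counted among them, have a median of -0.20, between the proximal tubule markers at -0.35 and the clathrin list at 0.00.

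Genes of injury and of other cell types also differed from the control. All 12 macrophage markers passed as higher, against 624 of all 9451 genes in the fit. Their summed linear signal was 9715 and 5261 in the acetate mice, against 2618 in the control mouse. Of 15 tubular injury genes, 13 passed as higher. Havcr1 (KIM-1, a marker of tubule damage) read 8.61 and 5.58 in the acetate mice, against 4.93 in the control mouse. Acetate mouse 1 had the higher macrophage and Havcr1 values. Acetate mouse 2 had the lower Cubn, Lrp2, Amn, Lrpap1 and tested Ocrl values. The tested Dab2, Clcn5 and Tmem27 values went the other way, being lower in acetate mouse 1. Adipose markers ran the opposite way, with a summed signal of 120 and 99.2 over 4 tested genes in the acetate mice, against 1839 in the control mouse. All 4 passed as lower in the acetate mice. The sum over the 24 proximal tubule genes was 103976 and 94874 in the acetate mice, against 126234 in the control mouse. Collecting duct markers summed to 8205 and 11833 in the acetate mice, against 7021 in the control mouse. Of the 7 tested, 4 were higher in both mice and 3 passed as higher (Aqp2, Aqp4 and Slc4a1), while Scnn1g, Hsd11b2 and Avpr2 lay on either side of the control. Loop and distal tubule markers summed to 30608 and 36033 in the acetate mice, against 28391 in the control mouse. Of these 7, 5 were higher and 1 lower in both mice, with Slc12a1 passing as higher (difference 0.60) and Pvalb as lower (difference -0.46). Of the fibroblast markers, 5 of 7 passed as higher, as did 2 of 6 endothelial and 0 of 5 podocyte markers (3 at an unadjusted p under 0.05, limma). All 7 fibroblast, 6 endothelial and 5 podocyte markers were higher in both mice, against 3505 of all 13473 genes. The 2 red blood cell markers did not move together: Slc4a1, which is also on the collecting duct list, passed as higher, while Alas2 differed by -1.37 in acetate mouse 1 and 0.52 in acetate mouse 2. The part of these in the endocytic gene differences was not tested. In whole kidney RNA, fewer proximal tubule cells and less RNA per cell cannot be told apart. The 3′ minus 5′ signal of the beta-actin control probe sets was 0.41 and 0.47 in the acetate mice, against 0.50 in the control mouse.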

How the data were processed

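Expression was measured in mouse kidney with 1 Affymetrix array per mouse, 2 acetate and 1 control, grouped by the labels. The deposited values are log2 expression values from the series value table. The submitters' processing notes name MAS5, and how the authors summarised and scaled the log2 values is not given in the sources used here. Array medians were 4.94 and 4.93 for the acetate mice and 4.91 for the control mouse, and quartiles were nearly equal. No detection calls were used, and 3 arrays limit how precise any value can be.

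Gene names came from the platform annotation (34945 of 45037 with 1 symbol, 932 with several, 9160 not listed), updated by Entrez identifier. The upper 60% by mean over the 3 arrays were kept (27022, mean of at least 4.21). Differences were tested with limma 3.58.1 in R 4.3.3, with lmFit and trended eBayes, two-sided, with Benjamini-Hochberg adjustment over 17923 probe sets. Probe sets with exactly equal acetate values were left out, since 33.7% of those kept are tied and a tie gives a spread of 0. The 1 residual degree of freedom comes from the acetate pair, the control array is taken to vary as they do, and the fit took 26.5 further degrees of freedom from all probe sets together. p-values therefore rest mostly on the spread between the 2 acetate animals pooled over the tested probe sets, and little on that of the probe set itself. For example, the SE was 0.11 for Tmem27 (acetate SD 0.02) and 0.12 for Lrpap1 1436609_a_at (acetate SD 0.19). They say nothing of the control's own spread.

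Genes and lists were chosen with earlier results of these data known. All probe sets of the 8 genes are given. From each list, genes that passed and up to 4 with the largest same-direction difference could be named, together with Havcr1, Lcn2, Umod, Slc34a1 and Hnf4a whatever their values. Slc6a19 and Fcgrt were added after their values were seen. Scnn1g, Hsd11b2, Avpr2 and Alas2 were also named outside this rule, as marker genes on either side of the control. Tables and plots were made with Python 3.11.15, pandas 2.3.3 and matplotlib 3.10.9.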

Additional observations from a re-analysis of the deposited data

How the results depend on the processing

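All 5 calls, of Cubn and Lrpap1, kept their direction under every alternative run, and all 5 passed with no filter on low values. Fits that change only the filter, the ties or the trend leave the values unchanged, so the direction there was fixed in advance. The number of endocytic gene probe sets passing as lower was 5, against 1 (a Dab2 probe set) with tied probe sets in the fit, 0 in the upper 40%, 0 after quantile normalization, 0 after median centring and 3 without an intensity trend. Their adjusted p ranged from 0.21 to 0.64 with ties, 0.055 to 0.17 in the upper 40%, 0.26 to 0.36 after quantile normalization and 0.15 to 0.29 after centring. The number passing as higher was 0, and 1 (Dab2 1429693_at) with ties. Over the array, 1174 probe sets passed as higher and 890 as lower. These counts became 161 and 218 in the upper 40%, 0 and 0 after quantile normalization (2559 at an unadjusted p under 0.05), 11 and 29 after centring, and 1400 and 1446 with ties. The degrees of freedom that limma took from all probe sets changed along with them, being 26.5 in the fit reported, 5.7 in the upper 40%, 2.5 after quantile normalization, 3.5 after centring and 0.4 with ties. Centring changed the differences of the 5 only slightly, for example to -0.51 for Cubn 1452270_s_at.

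A 1.5-fold or larger distance from the control in both mice was found at 783 probe sets, and a 2-fold one at 190. The sign turned only for Clcn5 1429400_at, to 0.014 after quantile normalization. Leaving out an acetate mouse left no residual degree of freedom, so no test: Cubn 1452270_s_at then ranged from -0.58 to -0.39 and Lrpap1 1426697_a_at from -0.64 to -0.54. No paired analysis was possible because the control group holds 1 mouse.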

Other observations

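Among 9444 other genes with untied acetate values, the 3 whose differences lay closest to those of Cubn in both mice were Uxs1, at -0.40 and -0.59, Ppa1, at -0.40 and -0.58, and Timp3, at -0.38 and -0.57. Likeness was the distance in the 2 differences, over 3 arrays. It says nothing of shared control. Slc7a13, a transporter gene of the late proximal tubule, was the 1 proximal tubule marker that passed as higher, at 7.03 and 7.88 in the acetate mice, against 4.93 in the control mouse (adjusted p = 6.4e-10, limma).

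The probe sets of the 8 genes fell into a bright and a dim set. Of the 7 with a mean log2 value under 9, 4 were higher and 1 lower in both acetate mice, and of the 15 brighter ones, 1 was higher and 14 lower. The dim ones that were higher are Lrp2 1445901_at, Dab2 1429693_at, Ocrl 1438284_at and Ocrl 1457313_at. The split at 9 was set after the values were seen.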
